A study of Mus musculus with 8 samples.

Results

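Aminoacyl-tRNA synthetases are the enzymes that join each amino acid to its tRNA. They were examined at the level of their mRNA in the heart ventricles of tumor-bearing and control mice. The genes were taken by name from the deposited count table, where 36 of the 43346 listed genes matched. Of these, 20 encode the enzymes of the cytosol and 16, with symbols that end in 2, those of the mitochondrion. All 36 had enough reads to be tested. At an FDR under 0.05 (FDR is the p-value adjusted by Benjamini-Hochberg over all genes tested), edgeR called 0 of the 36, where it called 8.73% of all tested genes, 4.12% higher and 4.61% lower in tumor-bearing mice. At an unadjusted p under 0.05 it found 6 of the 36, all higher, where 25.5% of all tested genes had such a p and 12.4% had it with a higher level. That count depends on how libraries were scaled: on plain library totals it was 1 of the 36, Rars, which was lower (log2 fold change -0.18, edgeR FDR 0.186), and with offsets for gene length 8 cytosolic and 5 mitochondrial members, all higher.

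The mice were male C57BL/6 animals injected subcutaneously at 7 weeks of age. Animals of the LLC1 group (n = 4) received 1000000 LLC1 cells, a line of Lewis lung carcinoma that grows in this strain, and animals of the PBS group (n = 4) received phosphate-buffered saline, the vehicle. Ventricles were taken 14 days after injection and sequenced as bulk RNA, 1 library per mouse. No genetic change was made in either group, and the tumor grew from 1 established line placed in the flank, not in the lung or the heart.

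Each synthetase recognises its amino acid and its tRNA, spends ATP to couple them, and hands the charged tRNA to an elongation factor that carries it to the ribosome. Mammals use nuclear genes for both sets of enzymes. The cytosolic set serves the ribosomes that make nearly all cell protein, and the mitochondrial set serves those that make the few respiratory chain subunits encoded by mitochondrial DNA, for which cardiac muscle has a high demand. Several cytosolic synthetases sit together in a multisynthetase complex. The transcription factor ATF4, which is made when amino acids are short or when the kinases of eIF2alpha are active, is known to raise many cytosolic synthetase mRNAs.

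The promoters of some cytosolic members carry the letters that ATF4 and C/EBP factors bind together, TGATGNAA, in which N is any base. The sequences are shown because they set apart a group of members that the gene names do not. RefSeq promoter sequences on build GRCm38.p6, reaching from 250 bases before to 50 after a start site, were matched for 27 of the 36 members. On either strand, TGATGNAA was found in 5 of 13 cytosolic promoters and in 0 of 14 mitochondrial ones. Among all promoters of that length, 3.97% held it, and 4.51% of genes had at least 1 such promoter. The lines below give the matches in capitals, with up to 22 bases on either side, 5′ to 3′ on the strand of the gene.
Aars, chr8:111033708-111033759, plus strand, 112 bases before the start: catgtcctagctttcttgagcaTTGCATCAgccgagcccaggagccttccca
Aars, chr8:111033829-111033871, plus strand, just after the start: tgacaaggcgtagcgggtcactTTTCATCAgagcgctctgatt
Gars, chr6:55037949-55038000, plus strand, 30 bases before the start: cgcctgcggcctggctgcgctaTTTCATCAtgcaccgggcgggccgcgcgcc
Iars, chr13:49682115-49682159, plus strand, just after the start: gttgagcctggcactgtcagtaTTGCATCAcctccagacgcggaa
Tars, chr15:11399644-11399695, minus strand, 15 bases before the start: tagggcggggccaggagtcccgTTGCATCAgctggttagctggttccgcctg
Yars, chr4:129189884-129189932, plus strand, just after the start: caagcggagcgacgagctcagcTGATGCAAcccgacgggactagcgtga

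In Aars, Gars, Iars and Tars the element reads in the reverse orientation, and in Yars in the forward one. Another motif, CACGTG, the E-box bound by MYC and related factors, was found in Aars, Farsb, Iars and Tars of the cytosolic set and in Ears2 of the mitochondrial set, against 7.15% of all promoters. The motif of NRF1, a regulator of nuclear genes for mitochondria, was found in Farsb, Kars, Tars, Iars2 and Mars2, against 4.6%. These matches describe letters in a window and were not tested for binding.

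Library totals were 12480706 to 16192158 counts in the PBS mice and 15342214 to 19747596 in the LLC1 mice. Across all genes, 1406 of 16111 tested were called, 663 higher and 743 lower in LLC1 mice. The PBS mouse 1-1 stood apart: Lars2 and genes with ribosomal RNA-like sequence took a larger share of its reads, and without it 1949 genes were called in place of 1406. Cardiomyocyte markers were abundant in every mouse, with a summed level of 82745 to 99028 CPM, and markers of adipocytes and skeletal muscle were below edgeR's filter on low counts and were not tested by it. CPM is the count divided by the library total in units of 1000000, after the total was scaled by the trimmed mean of M values (TMM).

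In the ventricle, the cytosolic synthetase mRNAs differed little between tumor-bearing and control mice. None of the 20 was called by edgeR at FDR under 0.05, and 3 (Kars, Lars and Sars, all higher in LLC1 mice) had an unadjusted p under 0.05. DESeq2 and limma-voom also called 0 of the 20. The log2 fold change (LLC1 over PBS) was above 0 in 16 of the 20, or 80.0%, against 47.9% of all tested genes. Its median was 0.063, against -0.010 for all tested genes, and it ran from -0.12 (Rars, arginine) to 0.22 (Vars, valine). Of the mitochondrial mRNAs, 0 of 16 were called by edgeR, DESeq2 or limma-voom. In edgeR, 3 (Aars2, Fars2 and Sars2, all higher) had an unadjusted p under 0.05. The log2 fold change was above 0 in 10 of 16, or 62.5%, with a median of 0.034 over all 16 and 0.041 without Lars2.

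**Figure D1:**
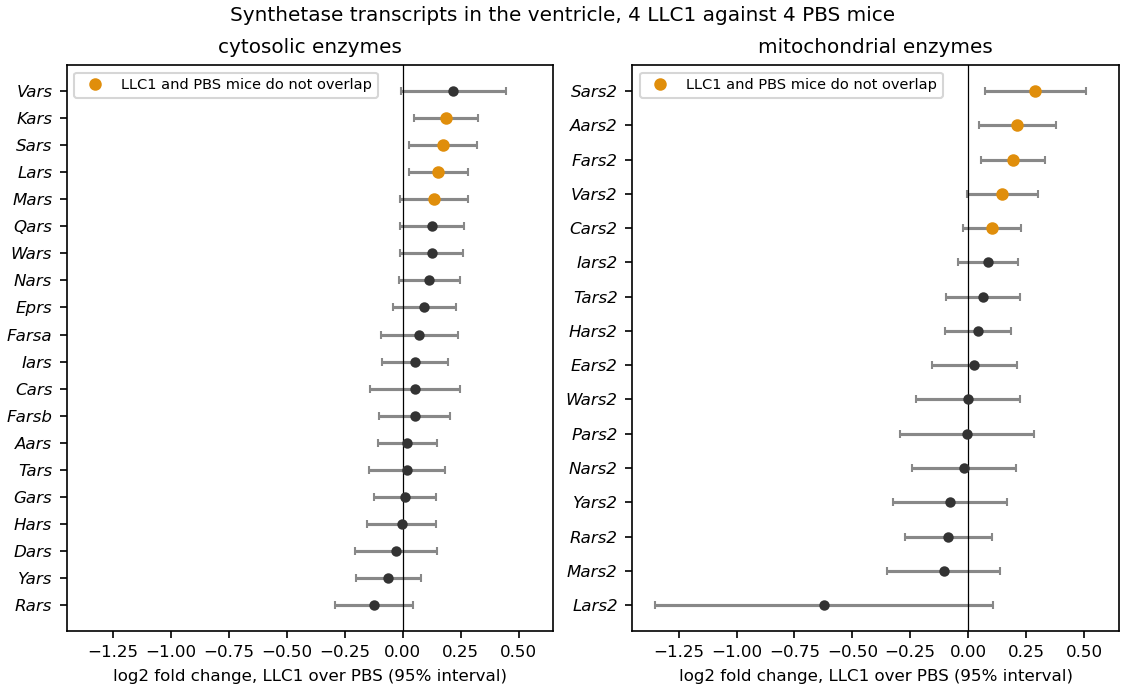
Fold change of each synthetase mRNA (log2, LLC1 over PBS, horizontal axis) with its 95% interval from edgeR, cytosolic enzymes on the left and mitochondrial enzymes on the right, 4 mice a group. Orange points mark the 9 genes whose LLC1 and PBS values do not overlap, and Lars2 has the widest interval.

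The intervals bound what could have been missed. For the 35 members other than Lars2, the 95% intervals of the fold change all lay between 0.785 and 1.42. The lowest FDR among the 36 was 0.0824 (Fars2) and the highest 0.999 (Wars2). In 9 of the 36 (25.0%) all LLC1 values lay above all PBS values, namely Kars, Lars, Mars, Sars, Aars2, Cars2, Fars2, Sars2 and Vars2, and in 0 of the 36 all lay below. Over all tested genes 17.2% were separated, 8.89% with LLC1 higher and 8.27% with LLC1 lower. The library scaling moves this picture: with plain library totals in place of TMM the median log2 fold change was 0.0089 for the cytosolic set and -0.020 for the mitochondrial set, against a median of -0.065 for all genes.

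Kars encodes the lysine enzyme for both the cytosol and the mitochondrion from 1 gene (ENSMUSG00000031948, mm10 chr8:111993440-112011323) and is a member of the multisynthetase complex. It was at 129, 111, 114 and 113 CPM in LLC1 mice 1-2, 1-3, 1-5 and 2-2 and at 101, 104, 101 and 103 CPM in PBS mice 1-1, 1-3, 2-1 and 2-5. Every LLC1 mouse was above every PBS mouse, and LLC1 1-2 was well above the other LLC1 mice. The log2 fold change was 0.19 ± 0.063 (SE), a fold of 1.14 with a 95% interval of 1.03 to 1.25, and edgeR's FDR was 0.0885, so it did not pass. An exact permutation test, two-sided over all 70 ways to split the mice, gave p = 0.0286, the smallest that 4 against 4 can give.

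Gars, the glycine enzyme, also serves both compartments from 1 gene (ENSMUSG00000029777, mm10 chr6:55038001-55079504) and carries the element printed above. Its values were 65.2, 67.5, 66.1 and 66.7 CPM in the LLC1 mice and 69.5, 65.6, 68.3 and 60.7 CPM in the PBS mice, in the same order of mice. The LLC1 mice fell inside the range of the PBS mice. Between the groups the log2 fold change was 0.0088 ± 0.061 (SE), the 95% interval of the fold was 0.917 to 1.10 and edgeR's FDR was 0.949.

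Eprs encodes a single chain that charges both glutamate and proline, and it is part of the multisynthetase complex (ENSMUSG00000026615, mm10 chr1:185363044-185428360). It was at 157, 153, 153 and 148 CPM in LLC1 mice and 148, 143, 151 and 131 CPM in PBS mice. The groups overlapped. Eprs had a log2 fold change of 0.093 ± 0.062 (SE) and an edgeR FDR of 0.381, and the 95% interval of the fold was 0.971 to 1.17.

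The 8 enzymes of the multisynthetase complex (Eprs, Iars, Lars, Mars, Qars, Rars, Kars and Dars) had a median log2 fold change of 0.11, and 3 of them, Kars, Lars and Mars, were separated with LLC1 higher, as were 8.89% of all tested genes. The leucine enzyme Lars was at 65.2 ± 1.67 CPM (SD, n = 4) in LLC1 mice and 58.6 ± 2.48 in PBS mice, and the methionine enzyme Mars at 56.4 ± 0.825 and 51.3 ± 3.90. Their edgeR FDRs were 0.127 and 0.230. Rars and Dars of the same complex were not higher: Rars was at 35.4 ± 2.39 CPM in LLC1 mice and 38.6 ± 2.86 in PBS mice, and Dars, the aspartate enzyme, at 70.3 ± 5.36 and 71.8 ± 6.77. The other 12 cytosolic mRNAs had a median of 0.053, and Sars, the serine enzyme, was the 1 of these with separated groups, at 68.7 ± 2.85 and 60.8 ± 4.38 CPM (edgeR FDR 0.131). Farsa and Farsb, the subunits of the phenylalanine enzyme, had log2 fold changes of 0.073 and 0.052. Lars, Mars, Sars, Rars and Dars were picked out after their values were seen. None of the 3 non-enzyme scaffold members of the complex (Aimp1, Aimp2 and Eef1e1) was called by edgeR, DESeq2 or limma-voom. None had an unadjusted p under 0.05 in any of them, and the edgeR log2 fold changes were 0.12, -0.044 and -0.074. With 3 genes, 0 called is near the 8.73% that edgeR called of all tested genes.

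**Figure D2:**
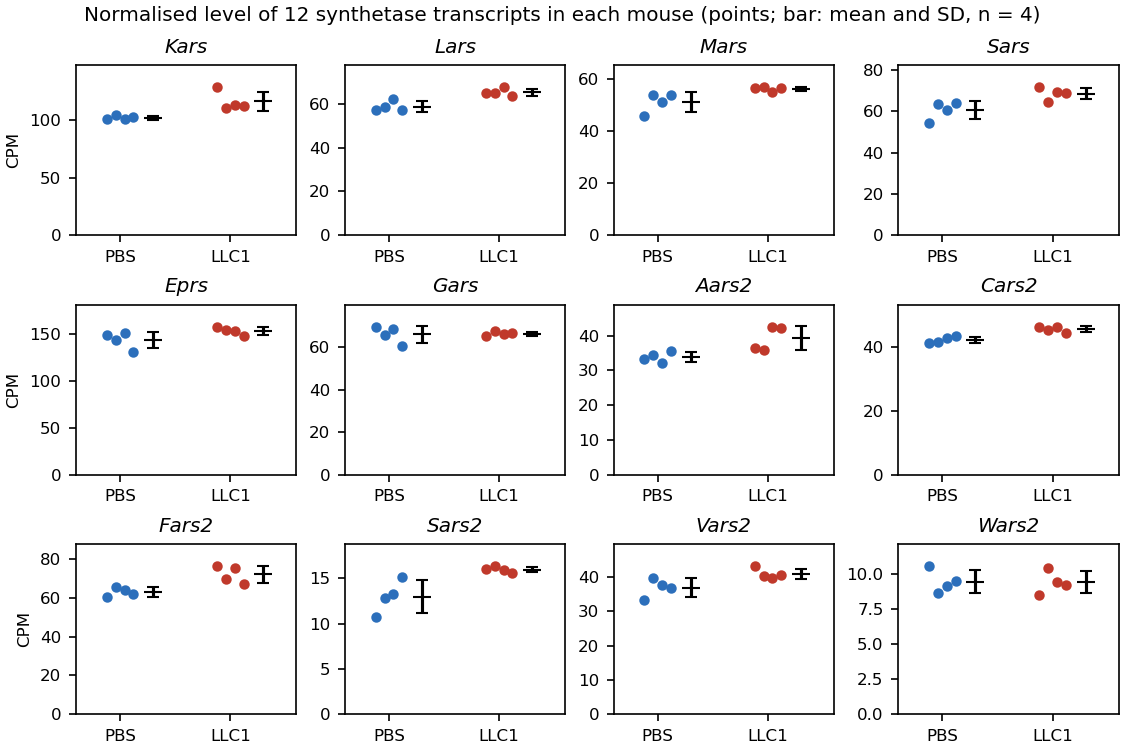
Level of 12 synthetase mRNAs in each mouse (CPM, vertical axes from 0, points) with the mean and SD of the 4 mice of a group beside them: the 9 genes whose groups do not overlap, and Eprs, Gars and Wars2, whose groups overlap. For Kars the LLC1 mice lie between 111 and 129 CPM and the PBS mice between 101 and 104.

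The 5 members with the TGATGNAA element, Aars, Gars, Iars, Tars and Yars, lay close to no change. Their log2 fold changes ran from -0.061 to 0.054 with a median of 0.017, and all 5 had overlapping groups. The lowest edgeR FDR among them was 0.587. The cytosolic members whose groups were separated were not among these 5. Promoters were matched for only 13 of the 20 cytosolic members, and an unmatched member could not show the element. The other genes known to be driven by ATF4 gave a mixed count. Of a list of 30, 27 were tested by edgeR, 2 rose and 1 fell, 3 of 27 in all, beside 8.73% of all genes, and the median log2 fold change was 0.035. At an unadjusted p under 0.05 there were 9 of 27, of which 7 were higher, beside 25.5% and 12.4% of all genes. DESeq2 called 4 of 27, these 3 and Cebpb, and limma-voom the same 3 as edgeR. Slc3a2, the heavy chain of amino acid exchangers, rose by 0.47 ± 0.077 (log2, SE; edgeR FDR 0.00501), from 32.9 ± 1.85 to 45.5 ± 3.78 CPM. Eif4ebp1, which encodes a repressor of cap-dependent translation, rose by 0.63 ± 0.081 (FDR 0.00139), from 44.6 ± 2.75 to 69.0 ± 7.07 CPM. Aldh18a1, which makes a precursor of proline and ornithine, fell, with a log2 fold change of -0.46 ± 0.096 (FDR 0.0137), from 12.8 ± 0.991 to 9.31 ± 0.633 CPM. Atf4 itself was at 58.3 ± 3.15 CPM in LLC1 mice and 58.5 ± 8.83 in PBS mice. Of the 4 kinases of eIF2alpha, 0 were called by edgeR, DESeq2 or limma-voom, and 0 reached an unadjusted p under 0.05. With 4 genes, 0 called is near the 8.73% of all genes. Among the list's other members, Ddit4, Chac1 and Cebpb had log2 fold changes of 0.79 ± 0.26, 0.66 ± 0.29 and 0.54 ± 0.19 and edgeR FDRs of 0.0761, 0.175 and 0.0917, with separated groups for Ddit4, while Mthfd2, Pycr1 and Asns had -0.50 ± 0.20, -0.41 ± 0.20 and -0.30 ± 0.20 (FDRs of 0.148, 0.238 and 0.392). These were picked out after their values were seen.

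Of the mitochondrial set, Fars2, which charges phenylalanine as a single chain, had the lowest FDR. It was at 76.2, 69.9, 75.2 and 67.1 CPM in the LLC1 mice and 60.2, 65.6, 64.2 and 62.1 CPM in the PBS mice. The groups did not overlap, with a narrow gap between the lowest LLC1 mouse and the highest PBS mouse. The log2 fold change was 0.19 ± 0.064 (SE), the 95% interval of the fold 1.04 to 1.26 and edgeR's FDR 0.0824. In GENCODE M21, exons of Fars2 share 8.72% of their bases with Nrn1 on the opposite strand. The deposited table gives Fars2 a length of 2125 bases, against 5747 in M21, so the counted exons may not hold that stretch. Whether the counting used strand was not given in the sources used here.

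Sars2, the serine enzyme, had the highest fold of the 36. It was at 16.01, 16.33, 15.92 and 15.65 CPM in LLC1 mice and at 10.7, 12.8, 13.3 and 15.1 CPM in PBS mice. The LLC1 mice were tightly grouped, and PBS 2-5 came closest to them. Its log2 fold change was 0.29 ± 0.10 (SE), with an edgeR FDR of 0.0950 over all mice. When 1 mouse at a time was left out, the log2 fold change ran from 0.21 to 0.37 and the FDR from 0.0380, without PBS 2-5, to 0.207. The lowest of these was the 1 call of any member in any setting tried.

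Aars2, the alanine enzyme, whose human counterpart is known for inherited cardiomyopathy, was at 36.52, 35.95, 42.51 and 42.06 CPM in LLC1 mice and 33.4, 34.4, 32.1 and 35.7 CPM in PBS mice. The groups were separated by a narrow margin, and LLC1 1-5 and 2-2 were higher than the other LLC1 mice. Its log2 fold change was 0.21 ± 0.077 (SE) with an edgeR FDR of 0.109. Vars2 (valine) and Cars2 (cysteine) were also separated, with log2 fold changes of 0.15 and 0.10 and FDRs of 0.207 and 0.281. Fars2, Sars2, Aars2, Vars2 and Cars2 were picked out after their values were seen. The members with values below 0 were Mars2, Nars2, Pars2, Rars2 and Yars2, from -0.11 to -0.0058, and Lars2. Wars2, the tryptophan enzyme (ENSMUSG00000004233, mm10 chr3:99141068-99239186), had 8.53, 10.5, 9.46 and 9.26 CPM in LLC1 mice and 10.6, 8.62, 9.12 and 9.50 CPM in PBS mice. The groups covered the same range, and the 95% interval of the fold was 0.856 to 1.17.

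Lars2, the mitochondrial leucine enzyme (ENSMUSG00000035202, mm10 chr9:123366940-123462664), cannot be read like the others. It was at 6403, 4846, 5548 and 3594 CPM in the LLC1 mice and at 15658, 5826, 4382 and 5508 CPM in the PBS mice. PBS 1-1 was far above the rest, and the other 7 mice overlapped. Lars2 took 1.46% of all counts in PBS 1-1 and 0.362% to 0.615% in the others. The log2 fold change was -0.62 ± 0.34 (SE), the 95% interval of the fold ran from 0.392 to 1.08 and edgeR's FDR was 0.270. Without PBS 1-1 the log2 fold change was -0.039.

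The level of Lars2 moved with the ribosomal RNA-like genes Gm15564 and AY036118, and with Gm26917 only in PBS 1-1. In PBS 1-1, Lars2 was 2.84-fold above the median of the other 7 mice, AY036118 was 3.33-fold above, Gm15564 2.37-fold and Gm26917 2.14-fold. The order of the 8 mice by Lars2 and by Gm15564 was the same. The order by AY036118 differed from that by Lars2 only at ranks 3 to 5. Gm26917 gave a different order outside PBS 1-1, which was first for all of these genes. LLC1 1-2 was at rank 2 for Lars2 and 7 for Gm26917, and LLC1 2-2 at rank 8 and 3. In the GENCODE M21 transcript of 3894 bases, the last exon of Lars2, within its 3′ UTR, shares 72 bases with Gm15564 at 98.6% identity, from transcript position 3278 to 3349, and it matches AA474408 over 97 bases at 94.8% (3233 to 3329) and over 50 bases at 96.0% (3163 to 3212). No match of that transcript to AY036118 or Gm26917 was found. The part of ribosomal RNA-like reads in the Lars2 count was not tested, since the table holds 1 count per gene. For this reason the class sums below are given without Lars2 unless stated.

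**Figure D3:**
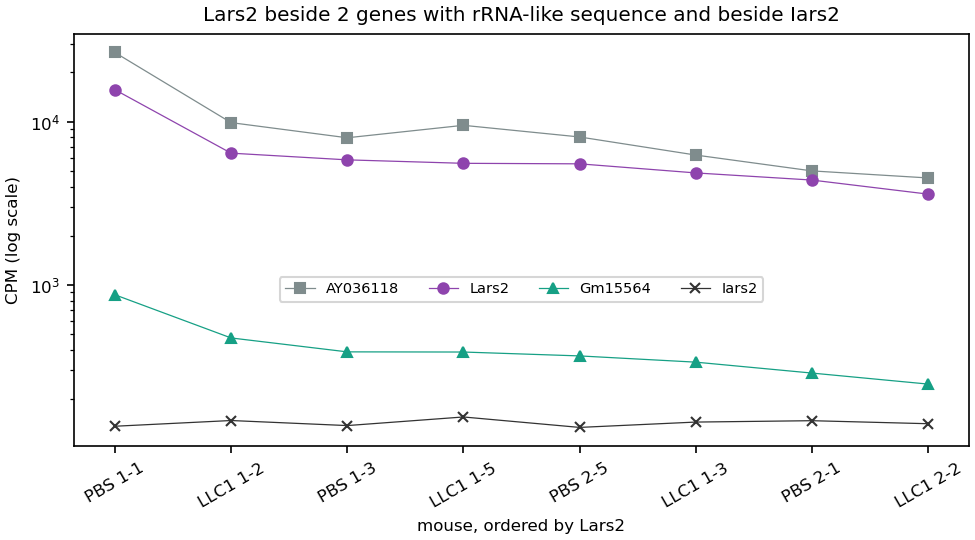
Level (CPM, log axis) of Lars2, of AY036118 and Gm15564, which have ribosomal RNA-like sequence, and of the isoleucine enzyme Iars2, in the 8 mice ordered by Lars2. The first 3 genes are highest in PBS 1-1, where Lars2 is at 15658 CPM, while Iars2 stays between 134 and 155 CPM.

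Summed over genes, the cytosolic mRNAs made up 1288, 1256, 1286 and 1235 CPM in the LLC1 mice and 1191, 1228, 1200 and 1165 CPM in the PBS mice. The lowest LLC1 mouse was just above the highest PBS mouse. The means were 1266 ± 25.5 (SD, n = 4) and 1196 ± 26.3, a difference of 5.89%. The mitochondrial mRNAs without Lars2 summed to 562, 544, 571 and 537 CPM in LLC1 mice and 522, 528, 523 and 511 CPM in PBS mice. These were again separated by a small margin, with means of 554 ± 15.6 and 521 ± 6.83, a difference of 6.23%. These differences depend on the scaling, of which TMM and plain library totals were compared for the sums. With plain library totals the cytosolic sums were 1237 to 1244 in LLC1 mice and 1112 to 1278 in PBS mice. The mitochondrial sums were 539 to 552 and 488 to 549, and the differences of the means 2.0% and 2.33%. On these totals the groups overlapped, and PBS 1-1 had the lowest sum of both classes. Leaving out PBS 1-1 put the PBS mean above the LLC1 mean in both classes.

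The balance between the compartments was compared in each mouse. The ratio of the cytosolic to the mitochondrial sum was 2.29 ± 0.0244 in LLC1 mice and 2.29 ± 0.0239 in PBS mice. The mean log2 CPM of the cytosolic genes minus that of the mitochondrial genes, Lars2 included, was also taken. It was 0.604 ± 0.0125 in LLC1 mice and 0.562 ± 0.0744 in PBS mice. The difference between the groups was 0.042. It was 0.0093 without Lars2 and 0.0052 without PBS 1-1, but 0.17 with medians over genes and 0.50 with summed CPM that include Lars2. No p is given for these sums and means, which pool genes that were chosen together.

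**Figure D4:**
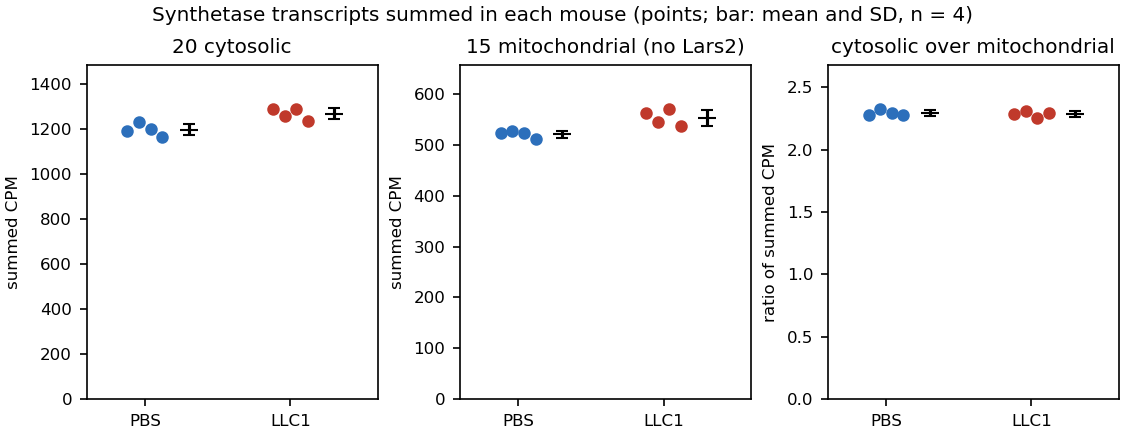
Summed level of 20 cytosolic synthetase mRNAs and of 15 mitochondrial ones without Lars2 (CPM), and the ratio of the sums, in each mouse (points) with the mean and SD of 4 mice. Both sums are higher in every LLC1 mouse than in any PBS mouse on this scale, and the ratio lies between 2.25 and 2.33 in all 8 mice.

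In whole tissue, fewer cells of a type and less RNA per cell cannot be told apart. Some cell type markers also differed between these groups. Over all tested genes edgeR called 8.73% (4.12% higher, 4.61% lower), DESeq2 10.5% and limma-voom 8.6%. In edgeR 25.5% had an unadjusted p under 0.05, and 8.89% were separated with LLC1 higher. In a short list of markers, 1 call is little above these shares. The summed level of 8 cardiomyocyte markers was 93933 to 99028 CPM in LLC1 mice and 82745 to 97219 CPM in PBS mice, with 1 of 8 called higher by edgeR (Myh6), 3 by DESeq2 (also Tnnt2 and Actn2) and 2 by limma-voom (Myh6 and Tnnt2). Myh6, Tnnt2 and Actn2 were separated with every LLC1 mouse higher, while Ttn and Ryr2 had log2 fold changes of -0.36 and -0.17 with overlapping groups. The overlap of the sums came from Ttn in PBS 1-1, at 18482 CPM against 8261 to 8446 in the other PBS mice: without Ttn the sums were 86040 to 89998 CPM in LLC1 mice and 74299 to 78737 in PBS mice. The 6 fibroblast markers summed to 838 to 917 CPM against 925 to 1308, with 3 called lower by edgeR and DESeq2 and 2 by limma-voom. The 6 endothelial markers summed to 809 to 938 against 916 to 1212, with 1 called lower by edgeR and limma-voom (Kdr) and 2 by DESeq2 (also Cdh5). The 4 tested markers of dividing cells were all called lower by edgeR, at 2.30 to 4.65 CPM in sum against 13.8 to 42.9. In edgeR, of the tested macrophage markers 1 of 5 was called lower (Mrc1), of the neutrophil markers 2 of 2 were called higher (S100a8 and S100a9, at 1.61 to 2.63 CPM in sum against 0.353 to 1.20), and of the erythroid and atrial markers 0 of 4 and 0 of 2 were called by edgeR, where 0 and 1 had an unadjusted p under 0.05. The skeletal muscle marker Myh4 had no count in any mouse. The part of cell composition in the synthetase levels was not tested.

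Where 1 cytosolic and 1 mitochondrial gene charge the same amino acid, the pair can be set side by side in each mouse, per kilobase of the gene length in the file. There were 13 such pairs, 12 without leucine. In PBS mice the mean ratio of cytosolic to mitochondrial level ran from 0.199 for cysteine (Cars over Cars2) to 8.69 for asparagine (Nars over Nars2), and it was above 1 in 8 of the 12. With GENCODE M21 exon lengths in place of those in the file, cysteine became 0.551 ± 0.0695, still the lowest, alanine 1.27 ± 0.0903 and threonine 0.744 ± 0.0256, from 1.07 ± 0.0367. Methionine and tryptophan were near asparagine, at 8.39 ± 1.86 and 8.41 ± 0.751. On the file's lengths tyrosine, alanine and isoleucine were also below 1, at 0.863 ± 0.158, 0.890 ± 0.0635 and 0.964 ± 0.0418.

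None of the 12 ratios separated the LLC1 from the PBS mice. Their changes, as the mean log2 ratio in LLC1 mice minus that in PBS mice, ran from -0.19 (alanine) to 0.24 (methionine), with a median of -0.037. The alanine ratio was 0.825, 0.842, 0.761 and 0.695 in LLC1 mice and 0.906, 0.894, 0.955 and 0.803 in PBS mice, so that LLC1 1-2 and 1-3 fell within the range of the PBS mice.

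Levels per kilobase differed far more between members than between groups. Among the cytosolic mRNAs in PBS mice, Kars was highest at 45.5 ± 0.775 CPM per kb, with no overlap with the next, Nars, at 29.9 ± 1.11. Nars overlapped Gars at 27.6 ± 1.64. A long run from Hars (histidine) at 17.7 ± 1.12 down to Qars (glutamine) at 11.4 ± 0.732 had no gap between neighbours. Cars, the cysteine enzyme (ENSMUSG00000010755, mm10 chr7:143557230-143600090), was lowest at 4.58 ± 0.546, apart from Yars just above it at 5.54 ± 0.155. Cars was at 22.8, 21.9, 22.3 and 21.2 CPM in LLC1 mice and 19.3, 24.7, 19.4 and 21.7 CPM in PBS mice. The groups overlapped, with the PBS mice more spread, and the log2 fold change was 0.054 ± 0.090 (SE; edgeR FDR 0.752).

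Of the mitochondrial mRNAs, Lars2 was listed highest at 2021 ± 1352 CPM per kb, with the reservation given above. Fars2 followed at 29.7 ± 1.11, Cars2 at 23.0 ± 0.512, Iars2 at 15.6 ± 0.662, Tars2 at 11.7 ± 0.558 and Aars2 at 10.1 ± 0.455, each apart from its neighbours. At the low end, Pars2 (proline) at 1.86 ± 0.274, Mars2 at 1.84 ± 0.305 and Wars2 at 1.59 ± 0.138 overlapped one another. The class medians were 14.1 CPM per kb for the cytosolic and 6.80 for the mitochondrial mRNAs without Lars2. These levels depend on the lengths in the deposited table. They were equal to the GENCODE M21 exon lengths for 20 of the 36 members, shorter for 15 and longer for 1. With the M21 lengths, an alternative chosen after seeing the data, 9 members fell by over 1.5 times. Cars2 became 5.87 ± 0.131 CPM per kb and Fars2 10.97 ± 0.412, both below Iars2, whose 15.6 did not move. Among the cytosolic mRNAs Kars became 22.9 ± 0.391, Gars 21.2 ± 1.26, Nars 18.1 ± 0.670 and Tars 5.58 ± 0.394. Kars and Cars kept the ends of the cytosolic order and Wars2 the low end of the mitochondrial order, and the class medians became 12.3 and 6.59.

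**Figure D5:**
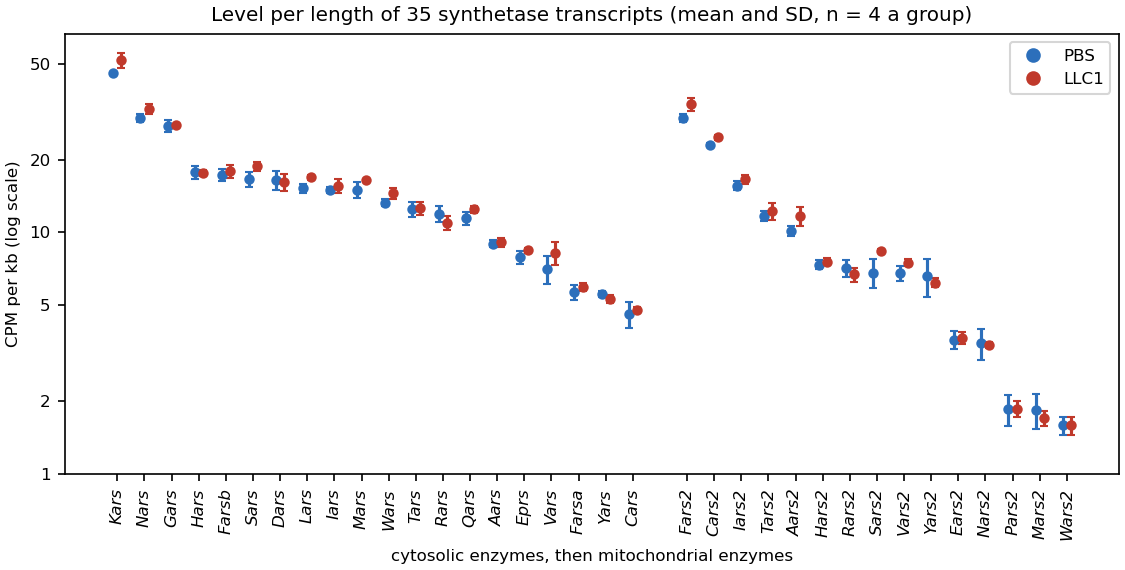
Mean level per kilobase (CPM per kb, log axis) and SD of 35 synthetase mRNAs in PBS and LLC1 mice (n = 4 each), ordered within each class by the PBS mean, with Lars2 left out and gene lengths as in the deposited table. Members span from 1.59 (Wars2) to 45.5 CPM per kb (Kars) in PBS mice, and the groups lie close together for each gene.

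The spread between mice was small for most members. The coefficient of variation had a median over the 36 of 4.53% in LLC1 mice and 6.74% in PBS mice. PBS 1-1 had the highest level of the 8 mice for 8 members and the lowest for 11, PBS 2-5 the lowest for 10, and LLC1 1-2 the highest for 11. Raw counts ranged from 225 to 2934 for the cytosolic members and from 53 to 2840 for the mitochondrial members without Lars2.

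Genes that act just before and just after charging were read in the same fit. Of 16 genes that make, modify or complete mitochondrial tRNA or carry it to the ribosome, 2 were called higher and 0 lower by edgeR, which called 4.12% of all tested genes higher and 4.61% lower. Hsd17b10, a subunit of the RNase P that cuts the front of mitochondrial tRNAs, was at 124 ± 12.3 CPM in LLC1 mice and 96.1 ± 6.46 in PBS mice, a log2 fold change of 0.37 ± 0.079 (FDR 0.0154). Elac2, which trims their far end, was at 34.6 ± 1.46 and 28.6 ± 1.69 CPM, a log2 fold change of 0.27 ± 0.070 (FDR 0.0341). The call of Hsd17b10 was lost without PBS 1-3 (FDR 0.0601), and that of Elac2 in 7 of 19 alternatives, with an FDR of up to 0.175. None of 9 proofreading and related genes was called by edgeR, DESeq2 or limma-voom, where edgeR called 8.73% of all tested genes. In edgeR 3 of them had an unadjusted p under 0.05, 2 higher and 1 lower, beside 25.5% of all tested genes.

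Of the 5 subunits of elongation factor 1, which takes charged tRNA from the synthetases in the cytosol, 1 was called higher by edgeR, DESeq2 and limma-voom, where edgeR called 4.12% of all tested genes higher. Eef1a2, the form used by adult muscle, was at 1142 ± 64.6 CPM in LLC1 mice and 915 ± 86.1 in PBS mice, a log2 fold change of 0.32 ± 0.079 (edgeR FDR 0.0287). That call was lost in 5 of 19 alternatives, with an FDR of up to 0.149 on plain library totals. Eef1a1, the form used by most other cells, was at 688 ± 79.8 and 750 ± 73.3 CPM (FDR 0.435).

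Reads of some members cannot be assigned with certainty. In GENCODE M21, Aars shares 14.3% of its exon bases with Exosc6 on the same strand. On the opposite strand, Iars2 shares 22.9% with Rab3gap2, Farsb 9.47% with Sgpp2, Vars2 8.52% with Gm20483, Hars 7.97% with Hars2 and Cars2 5.83% with Naxd. The lengths in the deposited table are shorter than in M21 for Cars2 (1846 against 7237 bases) and Hars (1987 against 2447). The counted exons of Cars2 and Hars may therefore not hold the shared stretch. For Aars, counting by strand would not separate the 2 genes. For the opposite-strand pairs, if the counting ignored strand, the values may hold reads of the partner gene or lack reads from the shared stretch.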

How the data were processed

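RNA from the ventricles of 8 mice was sequenced with paired-end reads. The values are whole-number read counts per gene that the authors deposited in 1 table, not normalized. The submitters' processing notes name CASAVA, STAR, featureCounts and mm10; versions, annotation and strand setting are not given in the sources used here. Groups were taken from the stated treatment. The members and gene lists were chosen with earlier results of these data known.

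Counts were compared with edgeR 4.0.16 in R 4.3.3 (filterByExpr, TMM, quasi-likelihood F-test, FDR under 0.05 after Benjamini-Hochberg adjustment over 16111 genes). The SE is the absolute log2 fold change divided by the square root of F. CPM are scaled by TMM factors, and log2 CPM used a prior count of 2. Single genes were also tested by an exact two-sided permutation test over 70 arrangements. Alternatives were RLE and upper-quartile factors, total counts, libraries without Lars2 and rRNA-like genes, DESeq2 1.42.0, limma-voom (limma 3.58.1), no filter, at least 10 counts in every mouse, a covariate for the first number in the replicate code, robust empirical Bayes, offsets for gene length (loess span 0.3) and each mouse left out. Transcripts were compared with BLAST 2.17.0, and other steps used Python 3.11.15. The fitting code was tested on simulated data. The rule gave in full Lars2, Gars, Kars, Eprs, any member passing the test, and the highest and lowest member of each class per kb. The precision depends on the spread between animals as well as on library totals, and counts of 1 library per mouse measure that spread.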

Additional observations from a re-analysis of the deposited data

Results flagged for a closer look

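Of the 72 groups formed by 36 members in 2 groups of 4 mice, 3 had a mouse far from the other 3 by Dixon's criterion, and chance gives about 5 in 100. Lars2 in PBS mice was at 15658 CPM in PBS 1-1 and at 4382 to 5826 in the others, and the ribosomal RNA-like genes were also highest in that mouse. Kars in LLC1 mice was at 129 CPM in LLC1 1-2 and at 111 to 114 in the others. Pars2 in LLC1 mice was at 6.39 CPM in LLC1 2-2 and at 5.53 to 5.56 in the others.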

How the results depend on the processing

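Across 19 alternatives, 0 of 20 cytosolic members were called in every one, and 0 mitochondrial members (of 16, or 15 where Lars2 was left out) in all but 1: leaving out 1 mouse gave 0 to 1 mitochondrial call, the 1 being Sars2 without PBS 2-5. Over all genes, leaving out 1 mouse gave 542 calls (without PBS 1-3) to 1949 (without PBS 1-1), against 1406. Of the calls 47.2% were higher in LLC1 mice, against 22.1% of 1018 on total counts and 61.2% of 1594 with offsets for gene length. Those offsets raised the members with an unadjusted p under 0.05 to 8 cytosolic and 5 mitochondrial and the medians to 0.12 and 0.090, against 3 and 3 with 0.063 and 0.034. Total counts lowered them to 1 (Rars, lower) and 0, with medians of 0.0089 and -0.020. The cytosolic minus mitochondrial difference of 0.042 became 0.17 with medians over genes and 0.50 with summed CPM, which includes Lars2. Of 683 alternative log2 fold changes of members, 638 kept direction and side of the threshold, 1 newly passed and 44 changed sign, all in genes that were not called. On total counts these were Aars -0.035, Cars -0.0041, Farsb -0.0015, Gars -0.044, Tars -0.038, Ears2 -0.027, Hars2 -0.012 and Wars2 -0.052. With offsets for gene length they were Dars 0.020, Yars 0.012, Nars2 0.028 and Pars2 0.030. DESeq2 gave Hars 0.00086, and no filter gave Hars 0.010 and Pars2 0.0087. The covariate gave Tars -0.011, Pars2 0.063 and Wars2 -0.0090, and at least 10 counts gave Wars2 -0.0047. With 1 mouse left out, Aars ranged from -0.0092 to 0.034, Dars from -0.088 to 0.016, Gars from -0.034 to 0.034, Hars from -0.036 to 0.024, Tars from -0.024 to 0.054, Ears2 from -0.036 to 0.053, Mars2 from -0.19 to 0.0014, Nars2 from -0.088 to 0.076, Pars2 from -0.093 to 0.048, Wars2 from -0.051 to 0.052 and Yars2 from -0.15 to 0.033. The cause of these moves was not tested. The groups share only the replicate code 1-3, carried by different animals. No paired analysis was possible because the groups share fewer than 2 replicate numbers. With 4 mice a group, the printed intervals give the sizes of change that these data leave possible. Levels per kb also depend on the gene lengths used.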
